A study of Mus musculus with 6 samples.

Results

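Fatty acid oxidation, ketone body metabolism and the target genes of the nuclear receptor PPARalpha were followed as a set of 28 named genes in total RNA from mouse small intestine. The set was taken by gene symbol from a table of 45777 genes, and all 28 symbols were found. The table holds 6 libraries, 3 whose titles read DIO-GFP and are labelled control, and 3 whose titles read DIO-zeta and are labelled PKCzeta overexpression. Prkcz encodes PKCzeta, one of the atypical protein kinases C, and GFP is green fluorescent protein. The series sets out to find genes that differ with Prkcz overexpression, under a title that names gastric bypass, atypical PKC and the glucose transporter GLUT1. The letters DIO stand in the titles of both groups and are not explained in the labels. Strain, age, diet, the part of the small intestine and how PKCzeta was delivered are also not given there. The labels do not state that each library is a separate animal, so p-values measure the spread between these libraries.

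Total counts ran from 77573133 to 93742978 per library. Prkcz itself was not higher under the overexpression label (log2 fold change -0.15, SE 0.24, edgeR adjusted p 0.95), so every direction given here is one between libraries labelled DIO-zeta and libraries labelled DIO-GFP. The tissue label was borne out by the enterocyte markers, which summed to between 16856 and 46557 CPM (read counts scaled to library size, here with TMM factors). Pancreatic acinar markers reached at most 0.378 CPM in sum. The share of counts in mitochondrial genes ran from 2.92% to 10.7%, lowest in DIO-zeta replicate 4-2 and DIO-GFP replicate 1-4.

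Fatty acids enter mitochondria as carnitine esters, through the transferases CPT1 and CPT2 and the carrier SLC25A20. Inside, acyl-CoA dehydrogenases, the trifunctional protein, hydroxyacyl-CoA dehydrogenase and thiolases shorten them in cycles to acetyl-CoA. Peroxisomes run a related pathway for very long chains, and liver, and to a lesser degree the gut, can turn acetyl-CoA into ketone bodies. PPARalpha, a receptor that binds fatty acids, switches on many of these genes in fasting or on a fatty diet, in enterocytes as in hepatocytes.

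No member differed between the labels past the threshold. Of the 28 genes, 26 passed the filter on low counts, and 0 of them had an adjusted p under 0.05 in edgeR's quasi-likelihood test, where 0% of 18456 tested genes did. The smallest adjusted p among the members was 0.917. Without adjustment, 0 members reached p under 0.05 in either direction, against 2.41% of all tested genes higher and 3.07% lower. DESeq2 and limma voom each gave 1 member at an unadjusted p under 0.05, Vnn1 and Acot1 respectively, and neither called a member after adjustment. Group ranges were apart for 1 member, Vnn1, which lay lower under the DIO-zeta label, against 4.72% of all tested genes apart and higher and 5.66% apart and lower. These counts of members are at or below the background.

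The differences that were measured were small for most enzymes. Of the 26 members, 19 had a log2 fold change below 0 and 7 above it, and their median was -0.045, where 45.7% of all tested genes were below 0 and their median was 0.035. The 95% interval of the log2 fold change stayed within 2-fold either way for 18 of the 26, and for 12 of the 13 members of the carnitine shuttle and mitochondrial beta-oxidation. The direction count depended on the libraries and on the tool. Without DIO-GFP replicate 1-4, 10 of 26 members were below 0 and the median was 0.10. With limma voom on all 6 libraries, 13 were below 0 and the median was 0.0057. With limma on the deposited TPM, relative to the median of all genes, 12 or 17 members were below 0, depending on the pseudocount. Between libraries of the same label, the median SD of log2(CPM + 2) was 0.33 for the members and 0.19 for all tested genes. The added 2 CPM narrows the SD of rare genes. Requiring a mean of 1 CPM kept 24 of the 26 members but only 13814 genes, so the 2 medians do not compare genes of like level.

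**Figure D1:**
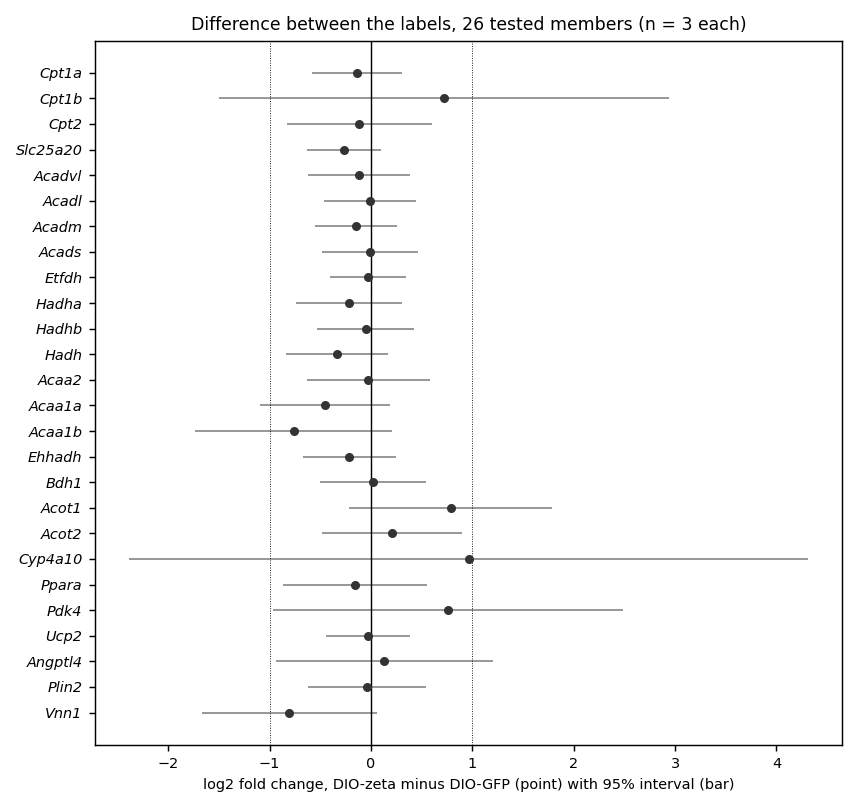
Log2 fold change of each of the 26 tested members, DIO-zeta minus DIO-GFP (x axis), with its 95% interval as a bar and dotted lines at 2-fold. Every interval crosses 0, the mitochondrial enzymes sit close to 0 with narrow bars, and Cyp4a10, Cpt1b and Pdk4 have the widest.

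Per unit length, the pathway ran from abundant mitochondrial enzymes to nearly silent liver-type targets. On the deposited TPM scale, which divides by transcript length and so allows genes to be compared, Hadh was highest with a mean of 367 over the 6 libraries. Hadhb followed at 195, Vnn1 at 185, Hadha at 171 and Acaa2 at 146. Their neighbours in this order overlapped, since Hadhb ran from 145 to 247 TPM and Hadha from 123 to 236. Ppara had a mean of 14.1 TPM, Acaa1b 13.4, Acot1 10.1, Acot2 9.19 and Pdk4 6.87. Cyp4a10 and Cpt1b stood below 1 TPM on average, at 0.422 and 0.382. Fgf21 and Cyp4a14 were counted in only some libraries and were not tested.

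**Figure D2:**
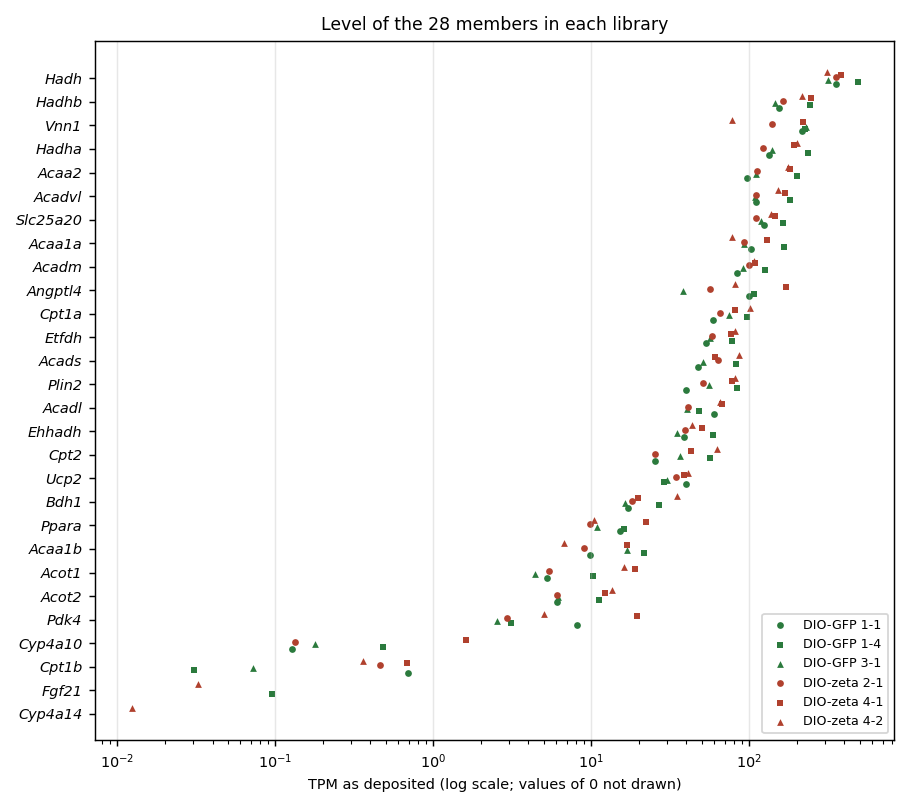
Deposited TPM (log axis) of all 28 members, ordered by mean, with a point for each library, green for DIO-GFP and red for DIO-zeta. Hadh lies highest at 311 to 489 TPM, and values of 0 are not drawn, which leaves 5 points for Cyp4a10, 2 for Fgf21 and 1 for Cyp4a14.

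In the carnitine shuttle, Cpt1a encodes the liver-type transferase at the outer membrane, the regulated entry step. It stood at 213, 331 and 293 CPM in DIO-GFP replicates 1-1, 1-4 and 3-1, and at 236, 257 and 271 CPM in DIO-zeta replicates 2-1, 4-1 and 4-2. All 3 DIO-zeta values fell inside the DIO-GFP range, and the log2 fold change was -0.13 (SE 0.19, edgeR adjusted p 0.944). Slc25a20, the carnitine-acylcarnitine carrier, had the highest mean of the shuttle per unit length (133 TPM against 79.6 for Cpt1a), and stood at 182, 226 and 192 CPM under the DIO-GFP label and 162, 186 and 151 CPM under the DIO-zeta label. Its ranges overlapped only through replicate 4-1, with a log2 fold change of -0.27 (SE 0.16). Cpt2, the inner-membrane transferase, varied 2.11-fold from 49.8 to 105 CPM; its lowest library was DIO-zeta replicate 2-1 and its highest DIO-GFP replicate 1-4 (log2 fold change -0.12, SE 0.31).

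Cpt1b, the muscle-type transferase, was barely present and its row cannot be read alone. Its read counts were 134, 7 and 16 in the DIO-GFP libraries and 98, 117 and 69 in the DIO-zeta libraries. The gene lies on chromosome 15 from 89416405 to 89425862 (mm10), where the table has a second row, Gm44502, annotated as a readthrough transcript. That row held 2, 69 and 155 counts in the DIO-GFP libraries and 7, 9 and 73 in the DIO-zeta libraries, so the libraries low in Cpt1b counts were those high in the other row. Summed over both rows, the level was 1.71, 0.869 and 2.07 CPM under DIO-GFP and 1.21, 1.55 and 1.36 CPM under DIO-zeta, and the 21.1-fold span of Cpt1b between libraries was no longer seen. For Cpt1b alone the log2 fold change was 0.72 (SE 0.96), and it was 2.95 without DIO-GFP replicate 1-1. Striated muscle markers summed to between 6.90 and 12.9 CPM over the 6 libraries, with 2 of 4 tested markers lower and Myh4 at 0 in all.

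The 4 acyl-CoA dehydrogenase genes and Etfdh, whose product passes their electrons to the respiratory chain, had log2 fold changes close to 0. Acadvl, for very long chains, had the highest mean of them per unit length (139 TPM) and stood at 203, 316 and 219 CPM in the DIO-GFP libraries and 202, 271 and 207 CPM in the DIO-zeta libraries. The DIO-zeta values again lay within or at the lower edge of the DIO-GFP range (log2 fold change -0.12, SE 0.22). Acadm, for medium chains, had -0.15 (SE 0.18), and Acads, for short chains, had -0.011 (SE 0.20). Acadl, the long-chain enzyme, had -0.0088 (SE 0.20) and differed from the others in its library order, with its highest value of 98.7 CPM in DIO-GFP replicate 1-1. Etfdh had -0.031 (SE 0.16) and the narrowest span of all tested members, 1.38-fold from lowest to highest. It overlaps Ppid, which had 9400 counts over the 6 libraries against its own 62435.

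Hadha and Hadhb encode the subunits of the mitochondrial trifunctional protein, which carries out the last steps on long chains. They kept close to each other across the libraries. Hadha stood at 307, 508 and 350.01 CPM under DIO-GFP and 281, 380.5 and 339.8 CPM under DIO-zeta. Hadhb stood at 285, 414 and 288 CPM under DIO-GFP and 281, 372 and 299 CPM under DIO-zeta. Both were highest in DIO-GFP replicate 1-4 and lowest in DIO-zeta replicate 2-1, and the ratio of their deposited TPM stayed between 0.757 and 0.969. The log2 fold changes were -0.22 (SE 0.23) and -0.052 (SE 0.21).

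The genes lie back to back on chromosome 5, Hadha on the minus strand from base 30154980 and Hadhb on the plus strand from base 30155253, with 272 bases between their RefSeq starts. These bases are shown because both genes are read outward from them, so 228 of the 250 also belong to the upstream window of Hadhb. The sequence is the plus strand of chr5:30154981-30155230 (RefSeq, GRCm38.p6), with CG dinucleotides in capitals.
Hadha-Hadhb: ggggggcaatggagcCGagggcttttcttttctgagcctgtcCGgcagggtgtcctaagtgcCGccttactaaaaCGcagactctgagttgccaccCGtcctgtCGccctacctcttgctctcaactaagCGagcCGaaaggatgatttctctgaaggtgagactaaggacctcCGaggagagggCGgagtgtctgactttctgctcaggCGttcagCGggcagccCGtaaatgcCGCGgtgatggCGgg
The stretch is 58.8% G or C and holds 16 CG dinucleotides, where the median of the same 250 bases over all RefSeq promoter windows is 52.4% and 6.

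Hadh, the hydroxyacyl-CoA dehydrogenase for shorter chains, was the highest member on the TPM scale and stood at 533, 694 and 516 CPM under DIO-GFP and 535, 499 and 348 CPM under DIO-zeta. DIO-zeta replicate 4-2 alone lay far below the rest, and the log2 fold change was -0.33 (SE 0.22, edgeR adjusted p 0.917). Acaa2, the mitochondrial thiolase, ran from 122 CPM in DIO-GFP replicate 1-1 to 239.9 CPM in DIO-GFP replicate 1-4, so its full range lay within the DIO-GFP group (log2 fold change -0.026, SE 0.26).

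The mitochondrial enzymes thus varied together between libraries more than between labels. Of the 13 tested members of the carnitine shuttle and mitochondrial beta-oxidation, 11 had their highest CPM in DIO-GFP replicate 1-4, the exceptions being Cpt1b and Acadl. Of all tested genes 17.6% were highest there. The count was 11 as well with DESeq2's size factors and with upper quartile scaling. On deposited TPM it was 6, with 4 others highest in DIO-zeta replicate 4-2, where 51.5% of all tested genes were highest on that scale. The mean log2 deviation of the 13 from their own averages was -0.14, 0.30 and -0.041 in the DIO-GFP libraries and -0.14, 0.098 and -0.082 in the DIO-zeta libraries, in the order above. DIO-GFP replicate 1-4 also had a low share of mitochondrial counts (3.37%) and the highest summed Paneth cell markers (20357 CPM, against 5487 to 17448 in the others), and the part of either in this pattern was not tested.

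**Figure D3:**
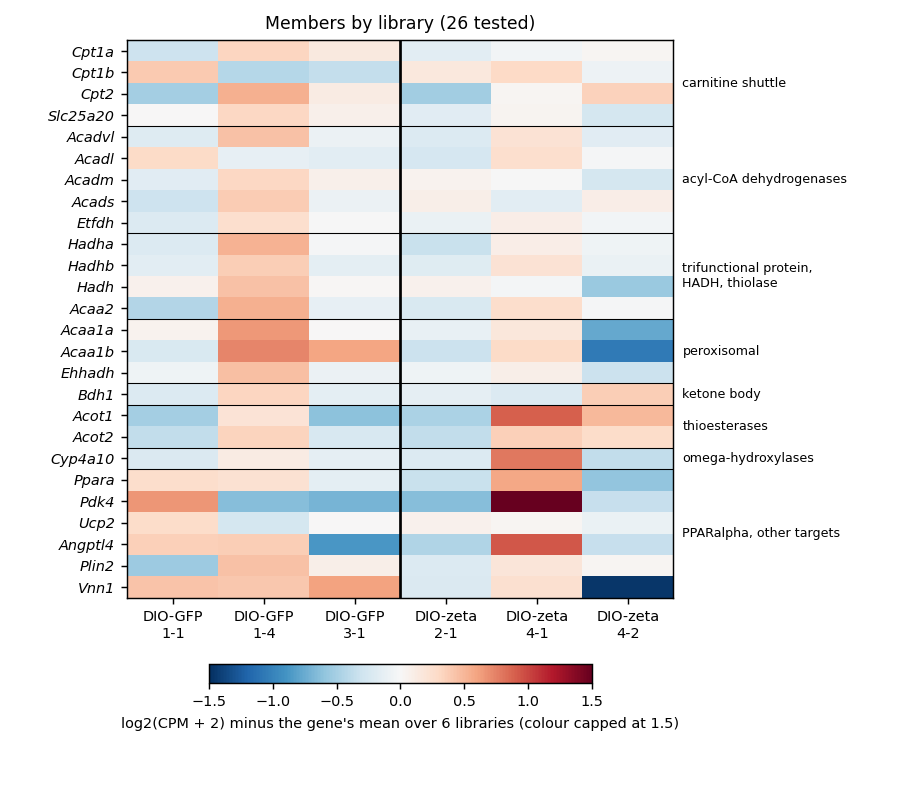
Colour map of log2(CPM + 2) minus each gene's mean over the 6 libraries for the 26 tested members (rows, grouped by role) in each library (columns, DIO-GFP left of the line). Most rows from Cpt1a to Ehhadh are reddest in DIO-GFP replicate 1-4, while Pdk4, Acot1, Angptl4 and Cyp4a10 are reddest in DIO-zeta replicate 4-1.

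Peroxisomal members lay lower under the DIO-zeta label without passing the test. Acaa1a, a peroxisomal thiolase, stood at 153, 233 and 149 CPM under DIO-GFP and 137, 167 and 86.0 CPM under DIO-zeta. Its log2 fold change was -0.45 (SE 0.28, edgeR adjusted p 0.917), and -0.22 without DIO-zeta replicate 4-2 and -0.22 without DIO-GFP replicate 1-4. Acaa1b, its near copy, stood at 13.7, 28.4 and 25.7 CPM under DIO-GFP and 12.7, 20.5 and 6.84 CPM under DIO-zeta (log2 fold change -0.76, SE 0.42). It was -1.22 without DIO-zeta replicate 4-1 and -0.44 without DIO-zeta replicate 4-2. The groups overlapped in both genes. Ehhadh, the peroxisomal bifunctional enzyme and a classical PPARalpha target, had -0.21 (SE 0.20). All 3 were highest in DIO-GFP replicate 1-4 and lowest in DIO-zeta replicate 4-2. The open reading frames of Acaa1a and Acaa1b are 96.5% identical, and 24.1% of the 100-base windows of Acaa1a occur unchanged in Acaa1b, so their split of reads is uncertain.

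The same library had the fewest enterocyte transcripts. All 14 enterocyte markers had a lower mean under the DIO-zeta label, 7 of them at an unadjusted p under 0.05 in edgeR, where 3.07% of all tested genes were lower at that p. With a library left out, between 3 (without DIO-GFP replicate 1-1 or DIO-zeta replicate 2-1) and 9 (without DIO-zeta replicate 4-1) of the markers reached it. DESeq2 called 2 of the markers after adjustment, Alpi (adjusted p 0.0277) and Apoa4 (adjusted p 0.0484), named here after their values were seen. The summed level of the 14 was 39645 to 46557 CPM in the DIO-GFP libraries and 28403, 34732 and 16856 CPM in DIO-zeta replicates 2-1, 4-1 and 4-2. In bulk tissue, fewer enterocytes and less of these RNAs per cell cannot be told apart, and the part of either in the member values was not tested. Markers of other cell types and regions are given beside them. Of 7 tested markers of the proximal small intestine, 6 were lower, 3 markers having an unadjusted p under 0.05. Their sum was 143 to 211 CPM under DIO-GFP and 75.0 to 217 CPM under DIO-zeta. Of 6 distal markers, 4 were lower, 2 markers having such a p, with sums of 7143 to 9745 CPM and 6081 to 9275 CPM. All 8 smooth muscle markers and 5 of 6 goblet markers were lower. By contrast, 5 of 6 crypt and stem markers and 4 of 5 Paneth markers were higher. All 4 mesothelium markers were lower (6.15 to 15.5 CPM in sum against 1.67 to 3.33 CPM). All 6 macrophage and neutrophil markers had estimates above 0, with overlapping sums (34.9 to 49.8 CPM against 46.1 to 72.2 CPM). The largest log2 fold changes were those of the neutrophil genes S100a8 (2.97), S100a9 (3.18) and Csf3r (1.67). The macrophage genes Adgre1 (0.019), Csf1r (0.089) and Cd68 (0.43) had small ones. The part of these cell types and regions in the member values was not tested. The peroxisomal score, a mean log2 deviation, was -0.082, 0.61 and 0.17 under DIO-GFP and -0.17, 0.19 and -0.72 under DIO-zeta, in the order above.

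**Figure D4:**
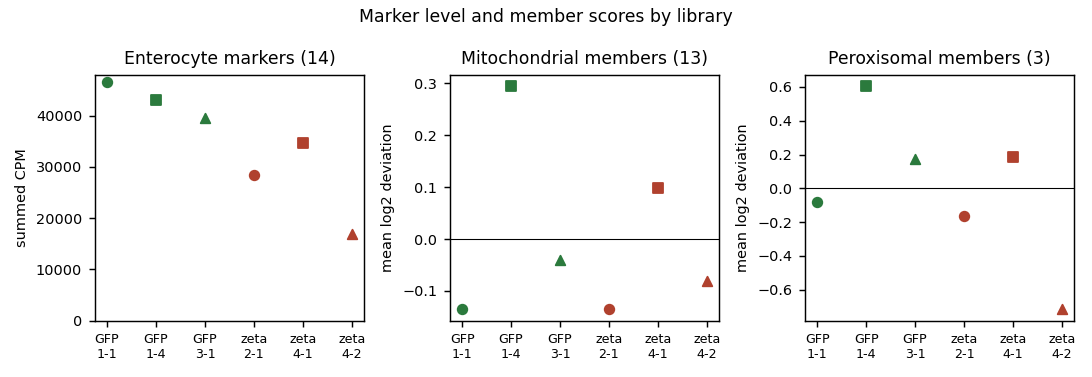
Summed CPM of 14 enterocyte markers (left), and mean log2 deviation of the 13 mitochondrial (middle) and 3 peroxisomal (right) members, with a point for each library. Enterocyte markers are lower in each DIO-zeta library, mitochondrial members peak in DIO-GFP replicate 1-4, and peroxisomal members reach their lowest value in DIO-zeta replicate 4-2.

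Bdh1, which interconverts the ketone bodies acetoacetate and beta-hydroxybutyrate, gave no difference. It stood at 45.0, 65.9 and 46.8 CPM under DIO-GFP and 47.2, 44.9 and 68.1 CPM under DIO-zeta. A single library was high in each group, DIO-GFP replicate 1-4 and DIO-zeta replicate 4-2. The estimate was 0.023 on the log2 scale (SE 0.23), and its 95% interval ran from -0.50 to 0.55.

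The acyl-CoA thioesterases Acot1 (cytosolic) and Acot2 (mitochondrial), which release free fatty acids from acyl-CoA, had higher means under the DIO-zeta label. Acot1 stood at 6.93, 12.7 and 6.28 CPM under DIO-GFP and 7.13, 21.7 and 15.8 CPM under DIO-zeta. DIO-zeta replicates 4-1 and 4-2 lay above all DIO-GFP libraries, and replicate 2-1 lay among them. The log2 estimate was 0.78 (SE 0.44) with a 95% interval from -0.22 to 1.79 and an adjusted p of 0.917. It was 1.17 without DIO-GFP replicate 1-4 and 0.41 without DIO-zeta replicate 4-1. Acot2 stood at 11.2, 19.4 and 12.4 CPM under DIO-GFP and 11.2, 19.8 and 18.6 CPM under DIO-zeta, and the highest and lowest libraries were DIO-zeta replicate 4-1 and DIO-GFP replicate 1-1 (log2 fold change 0.21, SE 0.30). The ratio of Acot1 to Acot2 in deposited TPM was 0.874, 0.920 and 0.716 under DIO-GFP and 0.898, 1.54 and 1.20 under DIO-zeta.

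The paralogs are neighbours on chromosome 12, Acot2 from 83987861 to 83993877 and Acot1 from 84009502 to 84017670. Their open reading frames are 95.6% identical over 1231 aligned bases, and 30.9% of the 100-base windows of Acot1 occur unchanged in Acot2. The pair of sequences shows the 60 aligned coding bases that differ most, with the 13 differing bases in capitals, because reads there can tell the genes apart while reads in the longest identical run of 273 bases cannot.
Acot1: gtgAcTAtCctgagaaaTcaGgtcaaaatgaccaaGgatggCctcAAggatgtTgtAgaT
Acot2: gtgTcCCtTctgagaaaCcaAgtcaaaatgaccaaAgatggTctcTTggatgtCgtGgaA
The labels do not say how reads that match both were counted, so the difference between the paralogs is uncertain.

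The microsomal omega-hydroxylases Cyp4a10 and Cyp4a14, which are strong PPARalpha targets in liver, were near silent. Cyp4a10 had 18, 70 and 29 read counts under DIO-GFP and 21, 201 and 0 under DIO-zeta, or 0.227, 0.800 and 0.351 CPM against 0.241, 2.47 and 0 CPM. Replicate 4-1 was the highest library and replicate 4-2 the lowest, both under the DIO-zeta label. The log2 fold change of 0.96 (SE 1.43) turned to -1.95 without replicate 4-1. Cyp4a14 had 3 reads in DIO-zeta replicate 4-2 and 0 in every other library. The reading frame of Cyp4a10 shares 17.9% of its 100-base windows with Cyp4a31 or Cyp4a32. Cyp4a31 had 0 reads in every library, and Cyp4a32 had 4 in DIO-GFP replicate 1-1, 5 in DIO-zeta replicate 4-1 and 0 in the others. How shared reads were assigned is not stated, so the split remains uncertain.

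Ppara itself was present in every library at 83.8, 82.1 and 63.0 CPM under DIO-GFP and 54.8, 105 and 45.6 CPM under DIO-zeta. The DIO-zeta libraries lay on both sides of the DIO-GFP range, and the log2 fold change came to -0.16 (SE 0.31, adjusted p 0.960). It was -0.61 without DIO-zeta replicate 4-1 and 0.078 without DIO-zeta replicate 4-2. The members with the widest spread included genes that respond to fasting. Pdk4, the kinase that shuts pyruvate out of oxidation, stood at 23.8, 8.50 and 8.09 CPM under DIO-GFP and 8.52, 49.1 and 10.9 CPM under DIO-zeta, a 6.07-fold span. Its spread between libraries of the same label was at the 99.2 percentile of all tested genes on log2(CPM + 2), a scale that narrows the spread of rarer genes. Its log2 fold change of 0.76 (SE 0.74) turned to -0.48 without DIO-zeta replicate 4-1.

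Angptl4, a secreted inhibitor of lipoprotein lipase, stood at 159.8, 161 and 67.0 CPM under DIO-GFP and 89.8, 238 and 97.2 CPM under DIO-zeta. Its log2 fold change was 0.13 (SE 0.46), and -0.47 without DIO-zeta replicate 4-1. That library was the highest of the 6 for Acot1, Acot2, Cyp4a10, Ppara, Pdk4 and Angptl4, or 6 of 26 members (23.1%), where 11.4% of all tested genes were highest in it. It was the highest for 0 of the 13 mitochondrial members on CPM. On deposited TPM it was the highest for 2 of these 13 and for 7 of the 26 members, where 12.6% of all tested genes were highest in it. Fgf21, a fasting hormone of liver, had 7 reads in DIO-GFP replicate 1-4, 2 in DIO-zeta replicate 4-2 and 0 in the other libraries.

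Vnn1, a pantetheinase at the cell surface and a PPARalpha target, was the only tested member whose group ranges were apart. It stood at 439, 433 and 497 CPM under DIO-GFP and 281, 385 and 118 CPM under DIO-zeta, so the highest DIO-zeta library lay below the lowest DIO-GFP library. Group means came to 456 ± 35.6 CPM for DIO-GFP and 261 ± 135 CPM for DIO-zeta (SD, n = 3 each). This is a log2 fold change of -0.81 (SE 0.37, 95% interval from -1.67 to 0.058, adjusted p 0.917), and of -0.45 without DIO-zeta replicate 4-2. For any gene with ranges apart, an exact two-sided permutation test gives p = 0.1, the smallest that 3 libraries against 3 can give. It therefore adds nothing to the ranges of Vnn1. On deposited TPM the ranges overlapped, since replicate 4-1 stood at 218 TPM beside 216, 227 and 229 in the DIO-GFP libraries. The enterocyte marker sums above have the same order of the DIO-zeta libraries. They do not have the same order of the DIO-GFP libraries. Replicate 3-1, highest there for Vnn1, had the lowest DIO-GFP sum of these markers, 39645 CPM. The part of enterocyte content in the Vnn1 level was not tested. Plin2, a lipid droplet coat protein, and Ucp2, a mitochondrial carrier, had log2 fold changes near 0, of -0.038 (SE 0.25) and -0.027 (SE 0.18). Plin2 varied 2-fold between libraries, from 60.7 to 122 CPM, and its 95% interval ran from -0.62 to 0.55.

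**Figure D5:**
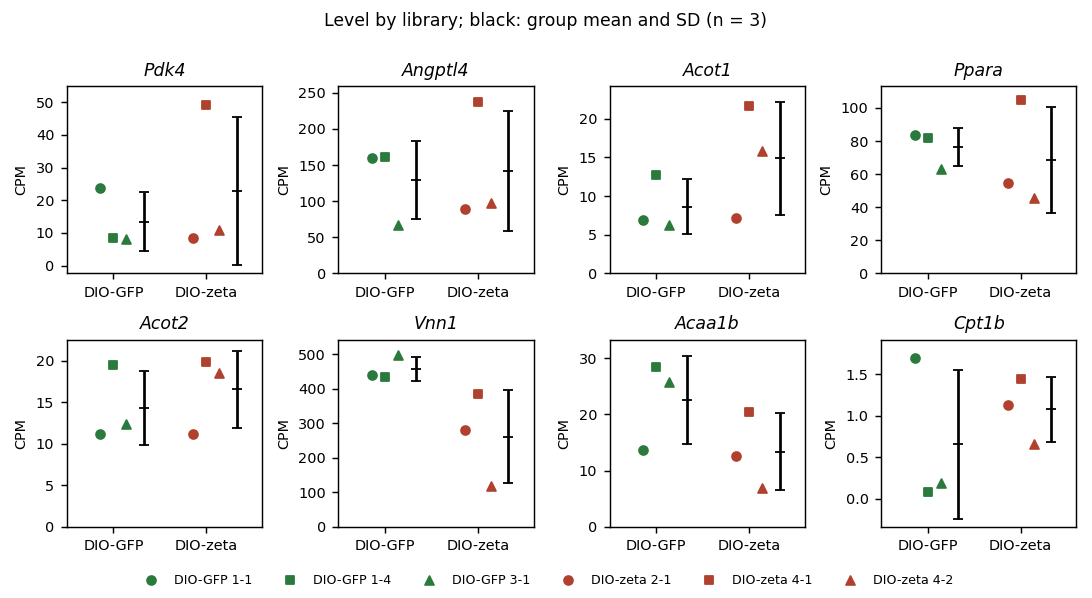
CPM of Pdk4, Angptl4, Acot1, Ppara, Acot2, Vnn1, Acaa1b and Cpt1b in each library (points, by label), with group mean and SD (n = 3) in black. DIO-zeta replicate 4-1 is the highest point for the first 5 genes, and for Vnn1 all DIO-zeta points lie below the DIO-GFP points.

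Further genes of the pathway were read from lists set up together with the members, and 0 of their 117 tested genes had an adjusted p under 0.05 in edgeR. At an unadjusted p under 0.05 there were 4 higher and 10 lower of the 117, where 2.41% of all tested genes were higher and 3.07% lower at that p. DESeq2 called 1 of the 117 after adjustment, and 82 of all 18456 genes. Of 28 other mitochondrial genes 17 were lower and 11 higher (median log2 fold change -0.047), with 2 in each direction at an unadjusted p under 0.05. Without DIO-GFP replicate 1-4, 11 were lower and 17 higher, with a median of 0.039, and upper quartile scaling gave 14 of each. Genes at that p numbered 1 without DIO-GFP replicate 1-4, DIO-GFP replicate 3-1 or DIO-zeta replicate 4-2, and 2 without DIO-zeta replicate 2-1. The acyl-CoA synthetase gene Acsl5, abundant in enterocytes, stood at 1393, 1632 and 1339 CPM under DIO-GFP and 835, 1176 and 979 CPM under DIO-zeta (log2 fold change -0.55, SE 0.20). The carnitine importer gene Slc22a5 had -0.57 (SE 0.22). Acsl4, the synthetase that prefers arachidonate, had 0.86 (SE 0.31), and Acadsb, for branched short chains, had 0.55 (SE 0.22).

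Other peroxisomal genes mostly had estimates below 0. Of 28 genes 23 had an estimate below 0, where 45.7% of all tested genes did. The median of the 28 was -0.24 on the log2 scale, against 0.0355 for all tested genes. At an unadjusted p under 0.05 in edgeR 3 were below 0 and 0 above it, where 3.07% and 2.41% of all tested genes were. Without DIO-GFP replicate 1-4, 19 were below 0, the median was -0.13 and 1 reached that p, and without DIO-zeta replicate 4-2, 21 were below 0, the median was -0.16 and 1 reached it. Without DIO-GFP replicate 1-1 the median was -0.37, and without DIO-zeta replicate 4-1, 5 reached that p. The enterocyte, proximal, mesothelium, macrophage and neutrophil marker sums given above differ between the same libraries, and their part in these values was not tested. The thioesterase gene Acot12 was counted in this list as chosen and was among the 3 at that p, but where its product acts was not checked. It stood at 18.1, 22.2 and 6.94 CPM under DIO-GFP and 3.41, 9.47 and 5.38 CPM under DIO-zeta. Its ranges overlapped through DIO-GFP replicate 3-1, and the log2 fold change was -1.37 (SE 0.50). Pecr, a trans-2-enoyl-CoA reductase, stood at 10.9, 13.7 and 12.2 CPM under DIO-GFP and 7.72, 10.6 and 7.35 CPM under DIO-zeta, with ranges apart (log2 fold change -0.52, SE 0.23). Of these 28 genes 17 were highest in DIO-GFP replicate 1-4 and 15 were lowest in DIO-zeta replicate 4-2.

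Of 10 tested ketone body genes, 7 were higher and 3 lower (median 0.15), where 45.7% of all tested genes were lower and their median was 0.0355. Only 1 had an unadjusted p under 0.05 in edgeR, and it was higher, where 2.41% of all tested genes were higher at that p. That was Oxct1, the enzyme that activates acetoacetate for use as fuel, at 141, 141 and 206 CPM under DIO-GFP and 229.7, 205 and 306 CPM under DIO-zeta (log2 fold change 0.60, SE 0.22). Aacs, which uses acetoacetate for lipid synthesis, had 0.31 (SE 0.22). Without DIO-zeta replicate 2-1 or 4-2 the split of the list was 5 higher and 5 lower.

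Of all tested genes 45.7% were lower (median 0.0355), and at an unadjusted p under 0.05 in edgeR 3.07% were lower and 2.41% higher. Among 33 other reported PPARalpha targets, 25 were tested and 17 were lower (median -0.18), with 5 lower and 1 higher at that p. Without DIO-GFP replicate 1-4 the median was -0.088 and 2 genes reached that p, and without DIO-GFP replicate 1-1 or DIO-zeta replicate 2-1, where the median was -0.27, 2 genes did as well. Without DIO-zeta replicate 4-1 the median was -0.31, and without DIO-zeta replicate 4-2 it was -0.10, with 14 lower and 11 higher. The genes with the smallest p serve fat absorption and transport as well. They were the fatty acid transporter gene Slc27a4 (log2 fold change -0.80, SE 0.20), the transcription factor gene Creb3l3 (-0.95, SE 0.26), the intestinal fatty acid binding protein gene Fabp2 (-1.04, SE 0.39) and the apolipoprotein gene Apoa1 (-0.83, SE 0.32). Fabp2 is also among the 14 enterocyte markers. Of 26 tested receptors and cofactors of the PPAR pathway, 0 had an unadjusted p under 0.05. The 4 with the smallest p were Ppard (-0.67, SE 0.32), Hnf4a (-0.33, SE 0.17), Rxra, the partner of PPARalpha (-0.25, SE 0.16), and the deacetylase gene Sirt1 (0.33, SE 0.23).

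PPARalpha binds with RXR to a direct repeat of AGGTCA with 1 base between the copies, so the RefSeq promoter windows of the members were searched for it on both strands. Windows run from 250 bases before to 50 after a gene's start, and 22 members had them, in 23 windows. Vnn1, Cyp4a10, Cpt1b, Angptl4, Acaa2 and Cyp4a14 have no entry in the table. This repeat, and a looser form with copies of AGGNCA (N being any base), were found in 0 of the 23 windows, and in 0.0396% and 0.381% of all 32851 windows. The single element AGGTCA, which is also part of every full repeat, was found in 4 of 23 (17.4%) and in 16.3% of all windows. The 4 stretches are shown in the direction of each gene, with the element in capitals (TGACCT where it lies on the opposite strand). They belong to Cpt1a (chr19:3323180-3323239), Acadvl (chr11:70015483-70015542, minus strand), Plin2 (chr4:86670245-86670304, minus strand) and Acadm (chr3:153944860-153944893, minus strand).
Cpt1a: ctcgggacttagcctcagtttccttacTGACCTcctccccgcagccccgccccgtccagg
Acadvl: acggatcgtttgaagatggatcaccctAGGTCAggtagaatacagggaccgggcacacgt
Plin2: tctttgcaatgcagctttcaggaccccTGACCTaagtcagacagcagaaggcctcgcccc
Acadm: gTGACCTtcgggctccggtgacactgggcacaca
In these windows the element was about as frequent among the members as among all genes, and elements outside the windows were not searched.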

How the data were processed

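Total RNA was depleted of ribosomal RNA and made into stranded libraries, per the labels' protocols. The submitters' processing notes name HISAT2, StringTie, Trimmomatic and FastQC, and the build mm10, with no versions. The counting program and its use of strand are not stated there. The authors deposited read counts, whole numbers with no normalisation, for 45777 genes. The deposited FPKM values, scaled to length and library size, were not used. The deposited TPM values, scaled to length and a fixed sum, served for levels between genes and as alternatives.

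Counts were tested in edgeR 4.0.16 (R 4.3.3): filterByExpr kept 18456 genes, libraries were scaled by TMM, and 3 libraries were compared with 3 by a two-sided quasi-likelihood F test (robust). P-values were adjusted over all genes by Benjamini-Hochberg at a threshold of 0.05. The biological coefficient of variation was 0.354, so counting error is small beside it except for the rarest members, such as Cyp4a14 and Fgf21. Intervals are at 95%. Scores use log2(CPM + 2). Positions and promoter windows are from RefSeq GRCm38.p6, the assembly that mm10 names (45679 gene IDs matched), and count from 1. Reading frames are the longest in GENCODE transcripts.

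The members and lists were chosen with earlier results of these data known. Values in every library were planned for members with an unadjusted p under 0.05, ranges apart or a log2 change beyond 1, for the highest of each role by TPM, and for Cpt1a, Cpt1b, Ppara, Fgf21 and Bdh1. From each pathway list the genes among the 4 with the smallest p are given, except some that are not reported here. Hadha, Hadhb, Acaa1b, Acot2, Pdk4, Angptl4 and the row Gm44502 were added after their values were seen. Alternatives were 2 other scalings, 2 other filters, DESeq2 1.42.0, limma 3.58.1 with voom and on log2(TPM + 1) and log2(TPM + 0.1), rows restricted by biotype, and leaving out each library. The edgeR step was tested on simulated data.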

Additional observations from a re-analysis of the deposited data

How the results depend on the processing

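No member passed an adjusted p of 0.05 under any of its 16 alternatives (15 for Cpt1b and Cyp4a10), and 10 of 26 members kept their direction in all they were tested in. Over all genes, edgeR and limma called 0 and DESeq2 82, none of them a member. DESeq2 left 3963 adjusted p-values not given. At an unadjusted p under 0.05 there was 1 member with DESeq2, 1 with voom, and 0 to 3 with a library left out (3 without DIO-zeta replicate 4-1: Acaa1b, Ppara and Vnn1). On deposited TPM 0 members had ranges apart. Members below 0 numbered 12 on log2(TPM + 1) and 13 with voom. With a library left out they numbered 10 (without DIO-GFP replicate 1-4) to 21 (without DIO-GFP replicate 3-1 or DIO-zeta replicate 4-1). The median of all genes was 0.14 on log2(TPM + 1) and 0.23 on log2(TPM + 0.1), and TPM values are relative to it. No paired analysis was possible because the groups share no replicate number.

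Estimates near 0, and that of Cyp4a10 (0.96, SE 1.43), changed sign with the tool, and the cause was not tested. Bdh1 was -0.0026 with DESeq2's size factors and with DESeq2. Acads was 0.0011 where a mean of 1 CPM was required, and Cpt1b and Cyp4a10 were not tested there. With voom, Acadvl was 0.039, Acadl 0.059, Acads 0.051, Etfdh 0.041, Hadhb 0.096, Acaa2 0.17, Cyp4a10 -0.73 and Plin2 0.092. On log2(TPM + 1), Acadl was 0.071, Acads 0.094, Etfdh 0.060, Hadhb 0.083, Acaa2 0.0996, Ucp2 0.069 and Plin2 0.12. On log2(TPM + 0.1), Acads was 0.0050, Acaa2 0.0087, Cyp4a10 -0.19 and Plin2 0.035.

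With a library left out, ranges crossed 0 for 16 members: Acaa2 from -0.23 to 0.30, Acadl from -0.15 to 0.14, Acads from -0.17 to 0.21, Acadvl from -0.27 to 0.10, Angptl4 from -0.47 to 0.36, Bdh1 from -0.19 to 0.22, Cpt1a from -0.31 to 0.0075, Cpt2 from -0.37 to 0.16, Cyp4a10 from -1.95 to 1.63, Etfdh from -0.15 to 0.099, Hadha from -0.37 to 0.024, Hadhb from -0.18 to 0.15, Pdk4 from -0.48 to 1.46, Plin2 from -0.28 to 0.21, Ppara from -0.61 to 0.078 and Ucp2 from -0.16 to 0.11. Depth limits Fgf21 and Cyp4a14, whose few reads allow no comparison.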

Other observations

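Of 28 other peroxisomal genes, 8 lay lower in every DIO-zeta library than in any DIO-GFP library, and 0 lay higher, where 5.66% of all tested genes were apart and lower and 4.72% apart and higher. Of the 25 other PPARalpha targets tested, 5 lay apart and lower and 1 higher. Of the 14 enterocyte markers, 7 lay apart and lower and 0 higher. On deposited TPM the peroxisomal counts were 1 lower and 1 higher, those of the PPARalpha targets 2 and 2, and those of the 28 other mitochondrial genes 0 and 3. The enterocyte markers had 4 and 0 on that scale, and the part of enterocyte content in the peroxisomal counts was not tested. The peroxisomal genes named next were picked out after their values were seen. Beside Pecr, they included Abcd3, a fatty acid importer (log2 fold change -0.37, SE 0.18), Crot, which makes carnitine esters for export (-0.46, SE 0.20), Acox3, an oxidase of branched chains (-0.35, SE 0.17), Cat, the catalase gene (-0.51, SE 0.27), Phyh, which hydroxylates phytanoyl-CoA (-0.32, SE 0.23), and Pex19, a chaperone of peroxisomal membrane proteins (-0.31, SE 0.16). The edgeR adjusted p of all 8 was 0.858 or more.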
